A study of Mus musculus with 60 samples.

Results

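The RNAs described here are the non-coding RNAs of mouse brain in 4 tables, which list long non-coding RNAs (lncRNAs), small nucleolar RNAs (snoRNAs), small nuclear RNAs (snRNAs) and transfer RNAs (tRNAs). Every named row was taken: 10040 lncRNAs, 1482 snoRNAs, 1380 snRNAs and 5537 tRNA identifiers, 18439 of the 368645 named rows in the 25 tables of the series. The series compared 3 Ftsj1-deficient (Ftsj1_DF) with 3 wildtype (WT) mice in 5 organs, with poly-A selected and with rRNA-depleted libraries, 60 libraries in all. The brain comparison rests on 6 rRNA-depleted libraries of whole brain, 3 for each genotype, all from males 4 months old. A litter of 2 brothers gave 1 mouse of each genotype and a litter of 4 brothers gave 2 of each, so neither genotype had a litter of its own. The sources used here name neither the strain nor how the deficient allele was made. A fold change in whole brain cannot separate fewer cells of a type from less RNA per cell.

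Ftsj1 encodes a methyltransferase that puts a methyl group on the 2′ oxygen of the ribose at positions in the anticodon loop of some tRNAs, working with the partner proteins Wdr6 and Thada, and loss of the human gene is a known cause of X-linked intellectual disability. Box C/D snoRNAs guide the same chemical change, 2′-O-methylation, on ribosomal and small nuclear RNA, and box H/ACA snoRNAs guide pseudouridylation. Spliceosomal snRNAs recognise the ends of introns, and lncRNAs include nuclear scaffolds, imprinted transcripts and the precursors from which many microRNAs and snoRNAs are cut.

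Unless another source is named, every level, fold change, standard error and p in the text is from the authors' deposited tables, which are DESeq2 output with 1 row per RNA and no value per library. A level is the mean normalised count over the 6 libraries, not divided by length, and the fold change is log2 of deficient over wildtype, given ± its standard error. In the poly-A brain table the targeted mRNA, Ftsj1, had a level of 2378 and a log2 fold change of -2.70 ± 0.10 (DESeq2 adjusted p = 3.893e-157), 15.4% of the wildtype level. Markers of neurons, oligodendrocytes and astrocytes were all present there, between 15928 for Mog, a myelin protein, and 852884 for Mbp, and none of the neuronal, glial or endothelial markers passed an adjusted p of 0.05. The microglial receptor P2ry12 was listed at 0 in that table, while the microglial genes Cx3cr1 and Csf1r had levels of 9768 and 16372.

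The RNAs on which the results turned are shown first. Gm13648 is a lncRNA whose annotated span holds 3 microRNA genes on the same strand, Mir200b, Mir200a and Mir429, of the miR-200 family, which is known as a mark of epithelial cells and of some sensory and endocrine cells. The mature microRNAs, from the RefSeq table of GRCm38.p6, are given 5′ to 3′ with the seed, bases 2 to 8, in capitals.
mmu-miR-200b-3p: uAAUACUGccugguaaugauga
mmu-miR-429-3p: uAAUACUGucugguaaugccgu
mmu-miR-200a-3p: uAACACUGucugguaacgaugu
The first pair share the seed AAUACUG, and miR-200a has AACACUG.

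Among the small RNAs, copies of U1 and U2 snRNA and a group of near-identical snoRNAs made up much of the abundant part of their tables. Their sequences are from the GENCODE M21 transcripts (GRCm38), with T for U. In the U1 copy Gm22513 the capitals mark the stretch that pairs with the 5′ splice site, and in the U2 copy Gm23971 the stretch that pairs with the branch site.
Gm22513: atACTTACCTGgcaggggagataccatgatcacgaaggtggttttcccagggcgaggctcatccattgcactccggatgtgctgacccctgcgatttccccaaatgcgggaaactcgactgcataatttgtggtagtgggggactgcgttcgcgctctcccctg
Gm23971: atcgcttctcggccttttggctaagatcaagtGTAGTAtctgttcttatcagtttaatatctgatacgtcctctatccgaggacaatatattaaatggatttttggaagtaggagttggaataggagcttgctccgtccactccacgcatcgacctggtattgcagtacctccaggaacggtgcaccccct
Gm22513 differed from the named U1 gene Rnu1a1 at 1 base, T60C, counted from the 5′ end of Rnu1a1. The snoRNAs Gm22988 and Gm23123, the most abundant of their sequence group and the one with the smallest p, have the ACA box of an H/ACA snoRNA near the 3′ end, in capitals.
Gm22988: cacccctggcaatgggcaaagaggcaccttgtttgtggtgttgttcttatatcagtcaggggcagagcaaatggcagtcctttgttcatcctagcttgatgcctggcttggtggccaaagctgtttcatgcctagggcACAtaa
Gm23123: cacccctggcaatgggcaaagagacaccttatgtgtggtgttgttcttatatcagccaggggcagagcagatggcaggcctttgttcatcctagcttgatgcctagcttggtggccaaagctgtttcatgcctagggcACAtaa

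Of the 4 tables, the lncRNA table alone held an RNA past the threshold. One lncRNA, Gm13648, fell in the deficient brains and none rose, which is 0.0108% of the 9249 lncRNAs with an adjusted p. No snoRNA of 963, no snRNA of 970 and no tRNA identifier of 4398 passed an adjusted p of 0.05 in the authors' DESeq2 test (0% in each table), and the smallest adjusted p in those 3 tables was 0.997. At an unadjusted DESeq2 p under 0.05, 327 lncRNAs (3.54%), 25 snoRNAs (2.6%), 10 snRNAs (1.03%) and 98 tRNA identifiers (2.23%) were counted. By direction these were 157 lower (1.7%) and 170 higher (1.84%) lncRNAs, 9 (0.935%) and 16 (1.66%) snoRNAs, 8 (0.825%) and 2 (0.206%) snRNAs, and 63 (1.43%) and 35 (0.796%) tRNA identifiers.

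Because each deposited mean is printed to about 15 digits, the whole reads behind a low level could be recovered. The 6 lowest levels of a table belong to RNAs with 1 read in 1 library, which gives the scaling factor of each library, and the sign of the deposited fold change of those RNAs gives its genotype. No library could be tied to a mouse. In the lncRNA table the factors were 1.30, 1.03 and 0.69 for the wildtype libraries and 1.16, 1.00 and 0.95 for the deficient ones, a range of 1.88 times. All 1476 lncRNAs with a level of 5 to 20 and a fold change within 3 log2 units had a single solution in whole reads among those within 0.25 log2 of the deposited fold change, and the ratio of the recovered means differed from it by a median of 0.02 log2. Values per library below were derived in this way, are normalised by these factors, and are given only where a single solution existed.

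Gm13648 had a level of 66.7 and fell by 2.60 on the log2 scale, ± 0.55 (95% interval -3.67 to -1.53, DESeq2 adjusted p = 0.0181), to 16.5% of the wildtype level. The recovered normalised counts were 12.1, 22.0 and 23.2 in the deficient libraries, from 14, 22 and 22 reads. In the wildtype libraries they were 28.9, 87.1 and 227, from 20, 90 and 295 reads. Every wildtype library was above every deficient one, but the wildtype values spanned 7.84 times, and the lowest of them was 1.25 times the highest deficient value. The mean was 19.1 ± 6.1 (SD, n = 3) in the deficient and 114 ± 102 (SD, n = 3) in the wildtype libraries. The exact two-sided permutation test over the 6 libraries gave p = 0.1, the smallest that 3 against 3 allows. The same limit holds for each RNA described below as without overlap. Most of those were named for a small p, which makes a lack of overlap likely, and the share of all RNAs without overlap is not given here. Without the wildtype library at 227, the log2 ratio of the means was -1.61 in place of -2.58. The call did not hold at an adjusted p under 0.01, nor with the Wald statistic read against a t distribution with 4 degrees of freedom (adjusted p = 0.9999), where the authors' DESeq2 test uses the normal distribution. Over so many lncRNAs that t distribution passes only very large statistics, so this setting could call hardly any RNA.

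**Figure D1:**
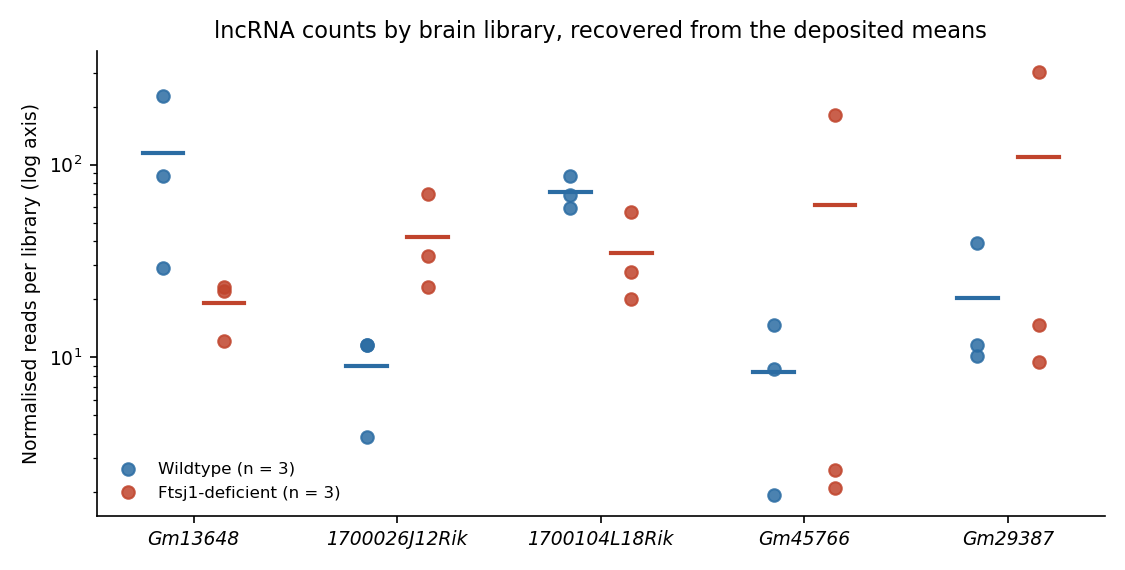
Normalised reads per brain library (vertical log axis) for the called lncRNA Gm13648 and 4 other lncRNAs, with wildtype libraries in blue, Ftsj1-deficient libraries in red and the mean of 3 as a bar. The wildtype values of Gm13648 run from 28.9 to 227 and the deficient values from 12.1 to 23.2, while Gm45766 and Gm29387 each have 1 deficient library far above the rest.

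In the other organs Gm13648 had log2 fold changes of -0.17 ± 0.14 in kidney, -0.14 ± 0.44 in spleen, 0.05 ± 0.42 in liver and 0.21 ± 0.84 in heart. Its level was 2645 in kidney, 154 in spleen, 54.9 in liver and 17.03 in heart, each on the scale of its own table, since the tables were normalised separately. The brain minus kidney difference in log2 fold change was -2.43 ± 0.56 (z test of the deposited values, adjusted p = 0.0115), and the brain minus liver difference was -2.65 ± 0.69 (adjusted p = 0.0482). The liver call had, with 1 other lncRNA, the highest adjusted p of the 11 liver calls, and it was lost with no minimum level (adjusted p = 0.0873) and with adjustment over the 4 tables together (adjusted p = 0.0594), whereas the kidney call held under both (adjusted p = 0.0181 and 0.0148). Against heart and spleen the difference was -2.81 ± 1.00 and -2.46 ± 0.70, with adjusted p of 0.262 and 0.601. These tests treat the organs as independent, although all come from the same 6 mice. Of the lncRNAs tested, 0.141% were called in brain against kidney, 0.255% against liver, 0.089% against heart and 0% against spleen.

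**Figure D2:**
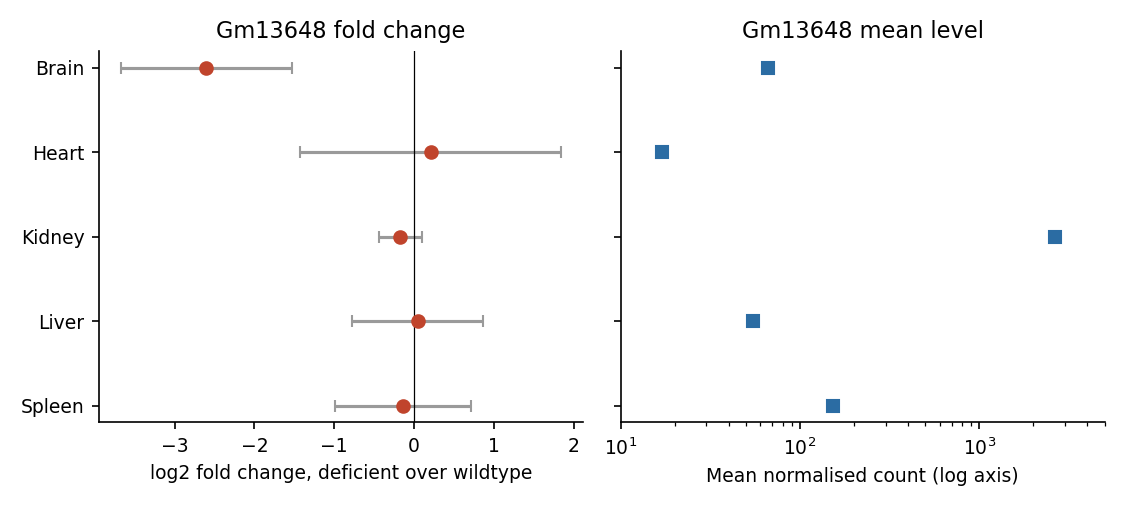
Gm13648 in the rRNA-depleted libraries of the 5 organs. The left panel gives the log2 fold change with its 95% interval and the right panel the mean normalised count on a log axis; the interval lies below 0 in brain, at a level of 66.7, and spans 0 in kidney, at a level of 2645.

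In the poly-A brain table Gm13648 had a level of 1.08, so its fold change there (-3.13 ± 3.94) had an error larger than itself. The protein-coding gene Ttll10 overlaps Gm13648 on the same strand, and its mRNA was at 0.16 ± 0.52 in the poly-A libraries. Some genes of pituitary and epithelial cells had values on the same side as Gm13648 in the poly-A libraries. Pomc, the hormone precursor made in the pituitary and in some hypothalamic neurons, was at a level of 363 and -1.18 ± 0.35 (DESeq2 adjusted p = 0.588). The other pituitary hormones, Gh and Prl, were at levels of 285 and 73.5, with -2.11 ± 3.61 and -1.78 ± 2.42. The authors' test gave no p for Gh. All 3 pituitary markers were below 0, but only Pomc had an error smaller than its value, and none was called. Of 5 epithelial genes, chosen after Gm13648 had been seen, 4 were below 0: Cdh1, an adhesion protein, at -0.67 ± 0.21 (DESeq2 adjusted p = 0.658), Epcam at -0.70 ± 0.70, Esrp1 at -0.39 ± 0.59 and Krt8 at -0.33 ± 0.60, with Krt18 at 0.20 ± 0.81. Their levels ran from 63.2 to 990.3. The choroid plexus genes Ttr and Kl were at -0.27 ± 0.66 and -0.05 ± 0.60. The part of tissue composition in the value of Gm13648 was not tested.

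The other lncRNAs with the smallest p did not pass the adjustment (DESeq2 adjusted p of 0.9999 for each). 1700026J12Rik was at 2.24 ± 0.63 and a level of 25.6; its recovered counts were 23.2, 33.6 and 69.9 in the deficient and 3.87, 11.5 and 11.6 in the wildtype libraries, with no overlap. Gm6260 was at 0.71 ± 0.21, 5930411N13Rik at -0.72 ± 0.22 and Gm42596 at -0.71 ± 0.22, at levels between 311 and 606. In the poly-A libraries the same 3 were at -0.27 ± 0.50, 0.81 ± 1.01 and -0.89 ± 0.97, at levels of 25.4 to 69.8, and only Gm42596 had the same sign.

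The authors' test gave no p for 3 detected lncRNAs, named after their values were seen: 4930423D24Rik, Gm45766 and Gm29387, with log2 fold changes of 2.42 to 2.87. In Gm45766 the deficient libraries held 2.1, 2.6 and 180 normalised counts and the wildtype libraries 1.94, 8.67 and 14.6. In Gm29387 they held 9.5, 14.7 and 303 against 10.1, 11.6 and 39.2. One deficient library, that with the scaling factor of 1.00, thus gave 97.5% and 92.6% of the deficient total of these lncRNAs. The same library held the highest value of 1700026J12Rik.

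Most of the abundant lncRNAs of known function named here lay near 0. Rmrp and Bc1, described below with the small RNAs, lay further from it, at -0.58 ± 0.19 and 0.42 ± 0.60. Malat1, a nuclear RNA of splicing speckles, had the highest count in the table, 688844, and a log2 fold change of -0.07 ± 0.14 (95% interval -0.35 to 0.20). Neat1, the scaffold of paraspeckles, was at -0.13 ± 0.14, and Norad, a cytoplasmic decoy of Pumilio proteins, at -0.04 ± 0.15. None of the 11 measured members of the list of nuclear and X-linked lncRNAs, which also held Norad, passed the threshold, 4 were below 0 and 7 above, and their median was 0.04 beside 0.01 for all 6899 lncRNAs at a level of 10 or more. Lncpint, Firre and Pvt1 were at 0.04 ± 0.13, 0.03 ± 0.12 and 0.14 ± 0.13, and Jpx and Ftx, which lie beside Xist, at -0.01 ± 0.12 and 0.10 ± 0.15. Tsix, the antisense partner of Xist, was the widest of them at 0.41 ± 0.28, and Xist, the X inactivation RNA, had a low level of 73.9 in these males and was at 0.25 ± 0.33.

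The imprinted lncRNAs are expressed from 1 parental chromosome. All 9 measured members lay between -0.05 and 0.13, with a median of 0.05, and none was called. Meg3, Rian and Mirg, from the Dlk1-Dio3 cluster, were at 0.05 ± 0.18, 0.13 ± 0.13 and 0.03 ± 0.12. Snhg14, the long transcript of the Prader-Willi and Angelman region that runs over Ube3a in neurons, was at 0.08 ± 0.13. Kcnq1ot1 and Airn, which silence neighbouring imprinted genes, were at 0.13 ± 0.17 and 0.03 ± 0.12, Peg13 at -0.05 ± 0.13, H19 at 0.05 ± 0.30 and Nctc1 at 0.03 ± 0.23.

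Of the 11 measured neural lncRNAs 9 were below 0 and none was called; their median was -0.05. Cdr1os, the precursor of the circular RNA sponge for miR-7, had a level of 614776 and was at -0.05 ± 0.15. Gm53013 had nearly the same level and fold change, 615603 and -0.05 ± 0.15, and may share reads with it; Cdr1, on the opposite strand, was at -0.10 ± 0.16. The library kit was stranded, but the sources used here do not say whether strand was used in counting. In kidney these 3 fell, by 1.37 (Cdr1os), 1.33 (Gm53013) and 1.39 (Cdr1) log2 (DESeq2 adjusted p = 1.825e-12, 3.296e-12 and 1.187e-09), and the brain differed from kidney by 1.32, 1.28 and 1.28 (adjusted p = 1.574e-05, 2.299e-05 and 0.000517). Their kidney levels were between 315 and 627. Dlx1as and Dlx6os1, antisense and enhancer RNAs of interneuron transcription factors, were at -0.24 ± 0.12 and -0.08 ± 0.11, Miat at -0.05 ± 0.17, Rmst at 0.14 ± 0.14, Sox2ot at -0.05 ± 0.14, C130071C03Rik at -0.02 ± 0.12 and Pantr1 at -0.02 ± 0.13.

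No transcript named as a microRNA host was called, and the most abundant lncRNAs of the remaining name classes had values between -0.16 and 0.08. Of 14 microRNA host transcripts at a level of 10 or more 6 were below 0, with a median of 0.02 and none called. The 3 most abundant, Mir99ahg, Mir100hg and Mir124a-1hg, were at 0.16 ± 0.16, 0.09 ± 0.15 and -0.05 ± 0.12. Of the opposite-strand transcripts by name 160 of 274 at that level were below 0, with a median of -0.03, and Oip5os1 and Chn1os3 were at 0.03 ± 0.14 and 0.08 ± 0.13. Gm14703 and Gm38642 were at -0.15 ± 0.14 and -0.11 ± 0.11, and 6030443J06Rik, D030047H15Rik and 1700126G02Rik at -0.09 ± 0.11, -0.16 ± 0.12 and -0.005 ± 0.13.

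**Figure D3:**
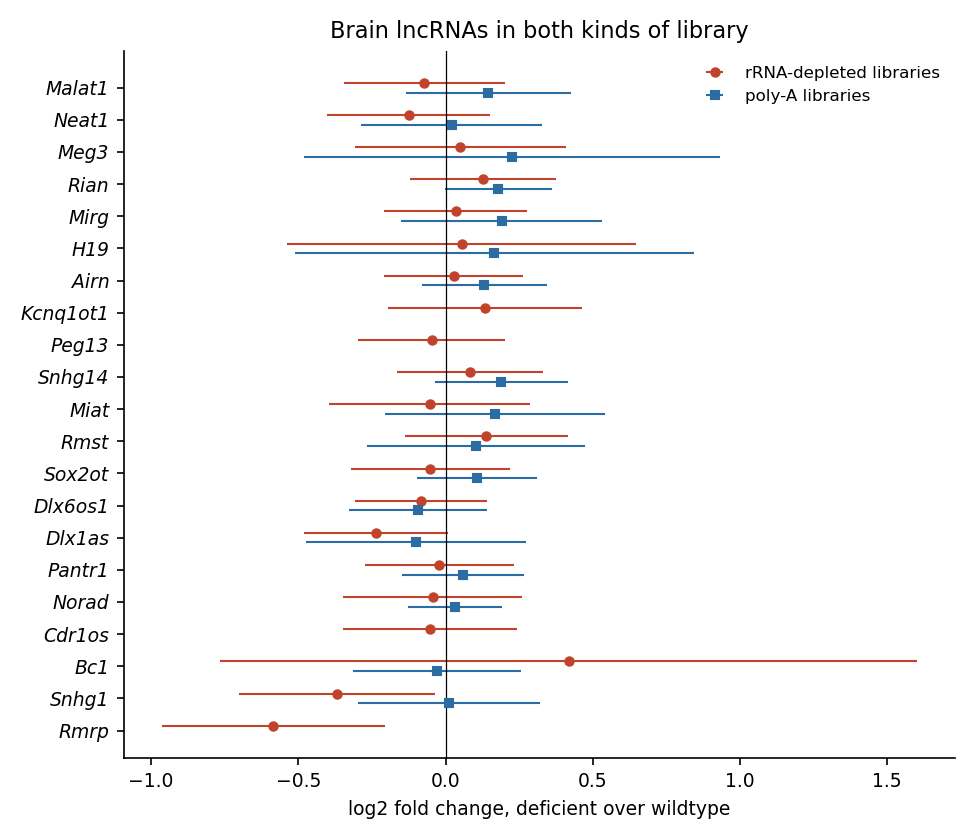
log2 fold change with 95% interval for 21 brain lncRNAs in the rRNA-depleted (red circles) and the poly-A (blue squares) libraries; RNAs listed at 0 in the poly-A table have no square. Most intervals span 0, and Snhg1 and Rmrp are the ones whose rRNA-depleted interval lies below 0 without passing the adjusted threshold.

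Both kinds of brain library could be compared for 3488 lncRNAs with a level of 10 or more in each. No lncRNA passed the z test of the difference between them (0% called, with 73 at an unadjusted p under 0.05). The test treats the library kinds as independent, although both come from the same mice. An absence of calls therefore does not show that the values were equal. Of the 1561 lncRNAs at a level of 1000 or more in the rRNA-depleted libraries, 588 were listed at 0 in the poly-A table, Cdr1os, Kcnq1ot1, Peg13 and Rmrp among them, so the poly-A table says nothing about these. No lncRNA was called in the poly-A table by the authors' DESeq2 test, and 143 had an unadjusted p under 0.05 there.

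The width of the 95% interval of a fold change depended on level. It holds for a single RNA before adjustment, so passing the adjusted threshold took a larger change. For lncRNAs at a level of 1000 or more the median standard error was 0.14, which puts the 95% interval at ± 0.27 log2, and at 10 to 100 it was ± 0.97. For snoRNAs at 1000 or more the interval was ± 0.51, and for those at 10 to 100 it was ± 1.10. The median fold change also moved with level: it was -0.03 in lncRNAs at 1000 or more and 0.13 at 10 to 100.

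Most of the abundant snoRNAs and snRNAs had values below 0, none past the threshold. Of the 25 snoRNAs with a level of 1000 or more, 22 were below 0, with a median of -0.31, whereas 221 of all 439 snoRNAs at 10 or more were below 0, with a median of -0.002. Of the 16 snRNAs at 1000 or more, 13 were below 0, with a median of -0.39, beside 158 of 318 and 0.005 at 10 or more. The RNA component of RNase MRP, Rmrp, which is listed among the lncRNAs and processes ribosomal RNA, had a level of 189940. It was at -0.58 ± 0.19 (DESeq2 unadjusted p = 0.00255, adjusted p = 0.9999). Bc1, a small dendritic RNA that represses translation and is also listed there, had a level of 22544 and lay on the other side of 0 with a wide error, at 0.42 ± 0.60, and in the poly-A libraries it was at -0.03 ± 0.15. Of the 154 tRNA identifiers at 1000 or more, 61 were below 0, with a median of 0.02. Each table was normalised by its own factors, so a fold change is relative to the other RNAs of its table. Copies of 1 RNA share reads, so these counts are not counts of independent RNAs.

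**Figure D4:**
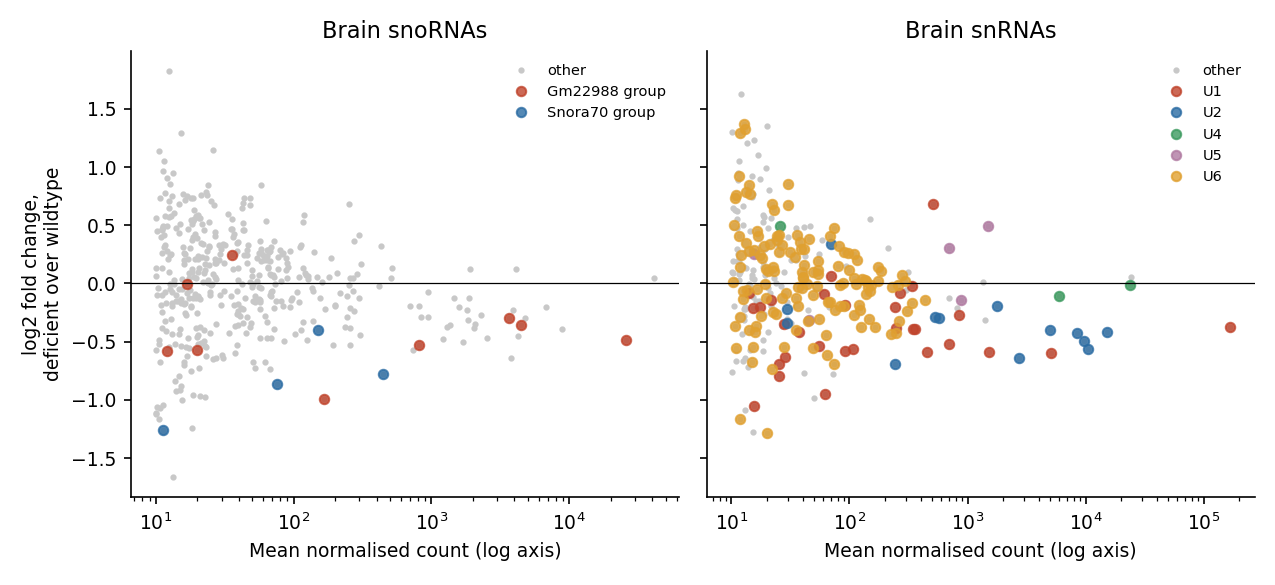
log2 fold change against the mean normalised count (log axis) for brain snoRNAs and snRNAs at a level of 10 or more, with sequence families in colour. The points scatter on both sides of 0 at low levels, and at 1000 or more 22 of 25 snoRNAs and 13 of 16 snRNAs lie below it.

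Among the snRNAs, 3 U1 and 7 U2 copies were 10 of the 13 below 0 at a level of 1000 or more. Copies were grouped by sequence, at 80% identity or more over at least 90% of a chosen copy of each family. That copy was a named gene except for U4, where it was Gm24265. Of 30 U1 copies at a level of 10 or more 28 were below 0, with a median of -0.39, and of 13 U2 copies 12 were below 0, with a median of -0.40. The most abundant U1 copy, Gm22513, had a level of 166938 and was at -0.37 ± 0.27. The named copies Rnu1b6, Rnu1a1, Rnu1b2 and Rnu1b1 were at -0.27 ± 0.33, -0.52 ± 0.31, -0.59 ± 0.30 and -0.39 ± 0.36. Of 14 U1 copies at 100 or more, Gm26110 alone was above 0, at 0.68 ± 0.43. The U1 copy Gm25682, at a level of 62.3, was at -0.95 ± 0.39. Among U2 copies, Gm23971 had the smallest p of the snRNAs at a level of 10 or more and was at -0.64 ± 0.25 (DESeq2 adjusted p = 0.9997). Gm25939, Gm24497 and Gm23444, at levels of 8395 to 15201, were at -0.42 ± 0.29, -0.57 ± 0.27 and -0.43 ± 0.29, and Gm26316 at -0.69 ± 0.31. Gm23971, Gm24950, Gm23849 and Rnu2-10 have identical sequences and were at -0.64, -0.49, -0.19 and -0.30, so reads of 1 RNA could be divided among these rows, whose values are uncertain.

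Most of the other spliceosomal RNAs lay closer to 0 or above it. Gm24265 and Gm24407, copies of U4, were at -0.01 ± 0.34 and -0.11 ± 0.31. U5 was represented by Rnu5g at 0.49 ± 0.43 and by Gm24871 and Gm25313 at 0.31 ± 0.36 and -0.15 ± 0.27. Of 132 U6 copies at 10 or more 62 were below 0, with a median of 0.02; Rnu6 itself held 33.6, 34.1 and 62.7 normalised counts in the deficient libraries and 42.6, 43.2 and 44.7 in the wildtype ones. The named RNAs of the minor spliceosome, which removes a rare class of introns, were at 0.06 ± 0.32 (Rnu12), 0.01 ± 0.30 (Rnu11) and 0.10 ± 0.37 (Rnu4atac). Of 3 U12 copies at 10 or more, Rnu12 included, 2 were below 0, with a median of -0.12 and the lowest at -0.78. U7, which acts in histone mRNA 3′ end formation, was at -0.37 ± 0.57. No test of the difference between families was run.

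Among snoRNAs, the group of Gm22988 and its near copies had 8 of 9 members at 10 or more below 0, with a median of -0.48. Gm22988 had a level of 25862 and was at -0.48 ± 0.26, Gm25291 at -0.35 ± 0.27, Gm25117 at -0.30 ± 0.25, Gm24727 at -0.53 ± 0.28 and Gm23123, which had the smallest p of the snoRNAs at a level of 10 or more, at -0.99 ± 0.35 (DESeq2 adjusted p = 0.998). The Snora70 group, H/ACA RNAs, had 4 of 4 below 0: Gm22422 at -0.77 ± 0.29, Snora70 at -0.86 ± 0.37, Gm26165 at -0.40 ± 0.28 and Gm24706 at -1.26 ± 0.75. The recovered counts of Gm24706 were 4.9, 5.6 and 8.98 in the deficient and 9.2, 17.8 and 20.8 in the wildtype libraries, without overlap. Both groups were put together after their values had been seen. The groups held 3 of the 5 snoRNAs with the smallest p at a level of 10 or more. Because they were chosen with those values known, this overlap is no evidence of a change. Gm25107 was at -0.57 ± 0.24. Gm24355 lay above 0, at 1.82 ± 0.75 and a level of 12.5, with 10.5, 18.6 and 29.4 normalised counts in the deficient and 4.60, 5.55 and 6.24 in the wildtype libraries, without overlap.

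Some snoRNAs, U3, U8 and U17 among them, act in the cutting and folding of the ribosomal precursor. The U3 RNAs had 6 of 7 copies below 0, with a median of -0.23, and the most abundant, Snord3b1, Snord3a and Snord3b2, were at -0.23 ± 0.31, -0.23 ± 0.26 and -0.21 ± 0.31. U8 (Snord118) was at -0.38 ± 0.37, U13 (Snord13) at -0.06 ± 0.32, and the U17 RNAs Snora73b and Snora73a at -0.45 ± 0.25 and -0.38 ± 0.26. Of the 4 U14 copies 3 were below 0, with a median of -0.10; Snord14e, Snord14d and Snord14c were at -0.14 ± 0.32, -0.06 ± 0.38 and 0.46 ± 0.43. By name, 41 of 77 box C/D and 23 of 40 box H/ACA snoRNAs at 10 or more were below 0, with medians of -0.06 and -0.09. Snora74a, the most abundant named H/ACA snoRNA at 8886, was at -0.39 ± 0.25, and the most abundant C/D snoRNAs, Snord17 and Snord15b, were at -0.20 ± 0.25 and -0.30 ± 0.24. Gm26397, at a level of 4090, was 1 of the 3 snoRNAs at 1000 or more above 0, at 0.12 ± 0.29. Snord94 was at -0.64 ± 0.28. The small Cajal body RNA Scarna10, the most abundant row of the table at 41256, was at 0.05 ± 0.28, and Scarna9 at -0.47 ± 0.37. Of the proteins that bind these RNAs, Fbl, the C/D methyltransferase, was at -0.14 ± 0.20 and Dkc1, the H/ACA pseudouridine synthase, at 0.03 ± 0.07 in the poly-A libraries, and none of 8 core snoRNP genes was called.

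The imprinted snoRNAs, many of them known from brain, lay on both sides of 0. The 62 snoRNAs inside Snhg14 at a level of 10 or more had 29 below 0 and 33 above, with a median of 0.06 and none called. The most abundant of them, Gm26365, Gm22131 and Gm23767, were at 0.09 ± 0.44, 0.08 ± 0.36 and 0.05 ± 0.34. Snord64 was at -0.19 ± 0.23 and Snord107 at 0.06 ± 0.28. The 17 named Snord116 copies, whose loss is known from Prader-Willi syndrome, had levels of 0.25 to 43.0, and 2 reached a level of 10. Snord116l12, the highest, held 33.7, 55.0 and 71.1 normalised counts in the deficient and 30.7, 31.9 and 35.7 in the wildtype libraries, and was at 0.69 ± 0.43; the ranges overlapped. Snord116l14 and Snord116l9 were at -0.54 ± 0.67 and 0.13 ± 0.92. The 9 snoRNAs inside Rian at a level of 10 or more had 8 above 0 and a median of 0.14. The most abundant, Gm24895, AF357425 and DQ267100, were at 0.12 ± 0.22, 0.14 ± 0.31 and 0.23 ± 0.34.

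A lncRNA that hosts a snoRNA can share reads with it in the lncRNA table. Of 31 host spans at a level of 10 or more, 5 had small RNAs whose own counts reached at least 50% of the count of the host. Among these were Snhg3, which holds Snora73a and Snora73b (86.0% of its count) and was at -0.42 ± 0.19, and Snhg1 (72.6%), at -0.37 ± 0.17 in the rRNA-depleted and 0.01 ± 0.16 in the poly-A libraries. 1700104L18Rik holds the snRNA Gm22220 (93.5%) and was at -1.05 ± 0.43, with 19.99, 27.6 and 56.9 normalised counts in the deficient and 59.3, 69.2 and 87.1 in the wildtype libraries. Gm22220 itself was at -0.98 ± 0.48, with overlapping ranges. The remaining hosts of this kind, B930036N10Rik and Snhg9, were at 0.16 ± 0.23 and 0.13 ± 0.29. In the 26 hosts with a smaller share the median was -0.01, 14 were below 0 and none had an unadjusted DESeq2 p under 0.05. Among all lncRNAs at a level of 10 or more, 274 of 6899 had such a p. The 26 ran from -0.41 ± 0.22 (Rab26os) to 0.23 ± 0.19 (9430037G07Rik), and Gas5 (0.01 ± 0.14) and Snhg12 (0.003 ± 0.17) lay closest to 0. Snhg4, a snoRNA host by name, was not among the 31 spans. It had a level of 9833 and was at -0.41 ± 0.16 (DESeq2 unadjusted p = 0.00883, adjusted p = 0.9999). Of 21 snoRNA hosts by name 11 were below 0, with a median of -0.04.

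The medians of the abundant small RNAs had different signs in the 5 organs. In kidney 6 of 33 snoRNAs and 2 of 24 snRNAs at a level of 1000 or more were below 0, with medians of 0.14 and 0.26, and in heart 6 of 26 and 6 of 15, with 0.14 and 0.03. In liver 26 of 41 and 18 of 23 were below 0, with medians of -0.26 and -0.37, close in value to brain but with larger errors (median standard error 0.43 and 0.52). In spleen the medians were 0.02 and 0.05. The U1 copies had a median of -0.39 in brain and -0.47 in liver, and of 0.02 in heart, 0.26 in kidney and 0.23 in spleen. Gm22513 was at -0.52 ± 0.80 in liver, 0.09 ± 0.24 in heart, 0.18 ± 0.34 in spleen and 0.26 ± 0.29 in kidney. No snoRNA, snRNA or tRNA identifier passed the z test of brain against any other organ (0% called in each of the 12 comparisons, with 0% to 7.69% at an unadjusted p under 0.05). For Rmrp the difference from heart was -0.79 ± 0.27 (adjusted p = 0.215).

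**Figure D5:**
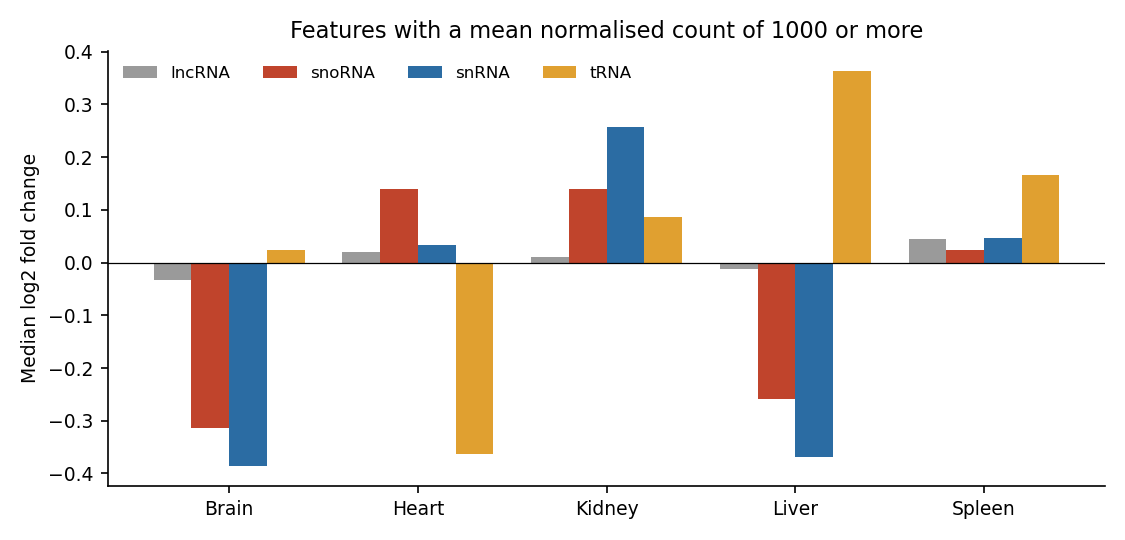
Median log2 fold change of the RNAs at a level of 1000 or more, by organ and kind of RNA, as bars from 0. The snoRNA and snRNA bars are below 0 in brain (-0.31 and -0.39) and liver and above 0 in heart, kidney and spleen, while the brain tRNA bar is at 0.02.

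The tRNA table lists RNAcentral identifiers, which are not paired with amino acids or anticodons in the sources used here, so the tRNAs that Ftsj1 modifies were not singled out. Many identifiers hold the same values: the 154 at a level of 1000 or more fell into 84 distinct sets of values. The 8 most abundant rows took 52.6% of the summed levels and were nearly identical to each other, at levels of 202067 to 204807 and log2 fold changes of -0.19 ± 0.19. In the abundant class the median standard error was 0.18, so the 95% interval of a typical tRNA was ± 0.36 log2. The 5 identifiers with the smallest p at a level of 10 or more were all below 0, none past the adjustment (DESeq2 adjusted p of 0.997 for each). The first, URS0000222FD2_10090, was at -2.30 ± 0.73 and held 1.962, 4.49 and 7.77 normalised counts in the deficient and 18.03, 25.02 and 28.5 in the wildtype libraries, without overlap, from 16 and 72 reads. The next, URS00002034DC_10090, had a level of 168 and was at -0.81 ± 0.27. A count of fragments measures abundance and not methylation.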

How the data were processed

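Brain RNA from 3 Ftsj1-deficient and 3 wildtype mice was sequenced after rRNA depletion with a stranded total RNA kit, per the labels' protocols. Per the submitters' processing notes, reads were assigned with featureCounts (Subread 2.0.3) on GRCm39 and compared with DESeq2. Per the file headers, the authors deposited for each RNA a signal (the mean of normalised counts), a log2 fold change with its log2 standard error, a score (the Wald statistic), a p-value and an adjusted p-value. The sources used here do not name the aligner, the strand setting or the treatment of reads that fit several places. Rows without a name (1 lncRNA, 1 snoRNA; at most 0.00187% of the summed level) were left out.

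Calls are the authors' adjusted p under 0.05. Differences between organs or library kinds are a two-sided z test of the deposited fold changes, with Benjamini-Hochberg adjustment over RNAs at a level of 10 or more in both. On simulated brain against kidney lncRNAs it called 94 of 100 changed by 3 log2, 44 of 100 changed by 1 log2 and 9 of 5493 unchanged. The simulation drew independent normal errors of exactly the deposited size. It therefore checks the calculation and does not give the rate of false calls in organs that share mice. Reads per library were recovered for levels of 2 to 70 where whole reads at the printed precision gave a single solution with under 0.05 expected by chance. The depth per library is not known beyond the scaling factors. The DESeq2 and z test p-values rest on the deposited standard errors, from 3 libraries per genotype, and not on the spread of the recovered counts. Sequence families came from blastn 2.17.0 on GENCODE M21 transcripts, which gave a sequence for 1358 of 1482 snoRNAs and 1180 of 1380 snRNAs; no coordinates are given because that build is GRCm38. Python 3.11.15, pandas 2.3.3 and scipy 1.17.1 were used.

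The RNAs named are, per table, those called, the 5 with the smallest p at a level of 10 or more, the 8 most abundant, the nuclear and imprinted lncRNAs at a level of 100 or more, and the 3 most abundant of most other lists, with examples from the hosts and families described; of the tRNA identifiers, 2 are named. The members and lists were chosen with earlier results of these data known, and recovery of reads, sequence families and level classes were added after the tables had been seen.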

Additional observations from a re-analysis of the deposited data

Results flagged for a closer look

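Among the RNAs named here, the fold change in brain differed by the z test from that in kidney for 4 lncRNAs, in liver for 1 and in heart for 1. For Gm13648 the brain minus kidney difference was -2.43 log2 and the brain minus liver difference -2.65 log2; with no minimum level the kidney difference was still called (adjusted p = 0.0181) and the liver difference was not (adjusted p = 0.0873). For Cdr1, Cdr1os and Gm53013, which lie together and may share reads, the brain minus kidney difference was 1.28, 1.32 and 1.28 log2, with brain near 0 and kidney below it. For Gm42596 the brain minus heart difference was -1.35 log2, from -0.71 ± 0.22 in brain and 0.64 ± 0.22 in heart, and neither organ passed the authors' DESeq2 threshold by itself (adjusted p = 0.9999 and 0.166). The difference of Gm42596 was also not called with no minimum level (z test, adjusted p = 0.0538, in place of 0.0341), and was called with adjustment over the 4 tables together (adjusted p = 0.0433).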

How the results depend on the processing

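No paired analysis was possible because the tables give 1 comparison per organ and no value that is tied to a mouse or a litter. The count of called brain lncRNAs was 1 in the authors' DESeq2 test, stayed 1 at an adjusted p under 0.1, with adjustment over all p-values, over RNAs at a level of 10 or more or over the 4 tables together, and with fold changes centred on the table's median, and was 0 at an adjusted p under 0.01. It was also 0 when the Wald statistic was read against a t distribution with 4 degrees of freedom, where Gm13648 had an adjusted p of 0.9999 and hardly any RNA could have passed. Over the other settings the adjusted p of Gm13648 lay between 0.0135 and 0.0304. With each library left out in turn, its recovered log2 ratio was between -3.04 and -1.61. The snoRNA, snRNA and tRNA counts stayed 0 under each of the 7 alternatives, which had little room to change them, as the smallest DESeq2 adjusted p there was 0.997. With no minimum level, the difference from brain was called for 1 RNA in heart, in place of 5, and for 6 in liver, in place of 11; Gm42596 in heart and Gm13648 in liver were among those lost. The share of snoRNAs below 0 was 88.0% at a level of 1000 or more and 67.0% at 100 or more; for snRNAs it was 81.3% and 72.5%. Low levels limited the rest: at 10 to 100 a typical snRNA had a 95% interval of ± 1.23 log2.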
